A study of Mus musculus with 6 samples.

Results

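A set of 9 transcription factors that define or mark liver macrophages, monocytes and dendritic cells were followed here across the cells of the livers of mice with non-alcoholic steatohepatitis (NASH): Spic, Id1, Id3, Maf, Zeb2, Irf4, Irf8, Batf3 and Spi1. They were chosen by gene symbol, and all 9 were found among the 19349 genes of each of the 6 count tables. The mice were male C57BL/6J, 8 weeks old at the start, and were kept on a high-fat diet for 24 weeks. In the last 8 weeks they received DMSO as vehicle or ginkgetin, a biflavone of plants, by the intragastric route at a daily dose of 10 mg/kg. Both groups carried the diet, so no healthy liver entered the comparison, and each group had 3 single-cell libraries of dissociated liver cells. Nothing in the labels says that the 3 libraries of a group came from separate mice, so the p-values measure only the spread between these libraries.

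Kupffer cells are the resident macrophages of the liver sinusoids, and they lie against the sinusoidal endothelium. Spi1 (PU.1) is the general factor of the myeloid lineages, while Spic, Id1, Id3, Maf and Zeb2 are known for resident macrophages, the Id proteins as partners that hold E proteins off DNA and as targets of bone morphogenetic protein (BMP) signalling. Irf8 and Batf3 are needed for type 1 conventional dendritic cells (cDC1), Irf8 also for plasmacytoid dendritic cells (pDC) and monocytes, and Irf4 for type 2 conventional dendritic cells (cDC2) and for plasma cells.

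The start regions of 3 of these genes are shown first, because Irf4 was the member called between the groups, Spic the one seen almost only in macrophages, and Id3 the Id gene best known from Kupffer cells. Each window runs from 250 bases before to 50 bases after the RefSeq start (GRCm38.p6), 5′ to 3′ on the gene's own strand. Capitals mark matches on either strand to GAGGAA, the core that PU.1 prefers.

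Irf4, chr13:30748983-30749282, plus strand: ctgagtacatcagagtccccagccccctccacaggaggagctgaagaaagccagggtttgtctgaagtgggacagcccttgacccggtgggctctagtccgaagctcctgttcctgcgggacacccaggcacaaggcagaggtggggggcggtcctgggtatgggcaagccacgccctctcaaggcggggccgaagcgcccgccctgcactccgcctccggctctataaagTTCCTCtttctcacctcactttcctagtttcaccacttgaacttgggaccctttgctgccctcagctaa

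Spic, chr10:88682974-88683273, minus strand: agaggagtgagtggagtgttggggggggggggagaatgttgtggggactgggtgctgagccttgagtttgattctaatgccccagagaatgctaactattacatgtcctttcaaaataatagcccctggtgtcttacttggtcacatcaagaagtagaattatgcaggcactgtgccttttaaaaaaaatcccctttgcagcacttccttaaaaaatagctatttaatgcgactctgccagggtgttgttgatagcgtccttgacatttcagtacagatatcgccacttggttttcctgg

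Id3, chr4:136143572-136143871, plus strand: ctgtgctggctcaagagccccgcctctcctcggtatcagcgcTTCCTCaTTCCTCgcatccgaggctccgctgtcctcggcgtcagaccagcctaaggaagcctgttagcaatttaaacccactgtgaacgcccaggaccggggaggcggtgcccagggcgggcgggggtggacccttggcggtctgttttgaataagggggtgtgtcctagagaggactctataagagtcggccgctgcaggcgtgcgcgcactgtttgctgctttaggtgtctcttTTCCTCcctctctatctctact

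Counted from the start base as +1, the Irf4 match began at -19 and the 3 Id3 matches at -208, -201 and +29, and the Spic window held no GAGGAA. The same letters were in 28.3% of the 32851 start windows of all genes, so a match is common and describes the sequence only. Windows were at hand for 6 of the 9 members, 10 windows in all, and none of Id1, Maf and Spi1. Both strands were also searched for the paired half-site of interferon regulatory factors (in 3.44% of windows), the NF-kB motif (1.20%), TGANTCA (AP-1, 7.81%) and CAGNTG (an E box, 51.4%). None of the members' windows held the first 2 of these, 1 Zeb2 window held TGANTCA at -189 and -132, and 1 Irf8 window held CAGNTG at -205. No match overlapped a match to another of these motifs. The Batf3 window and all 4 Zeb2 windows held GAGGAA, 2 of the latter overlapping each other and sharing 1 match, and neither Irf8 window did.

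The 6 libraries held 33168 cell barcodes, between 3577 and 8119 in each, with 13128697 to 61796882 UMIs (counted molecules) per library. After the filter on genes and mitochondrial UMIs, 27544 cells remained, 13490 from vehicle and 14054 from ginkgetin. They fell into 52 clusters that were named "X-like" from marker genes, and 9 clusters stayed unnamed (8.27% of vehicle and 12.4% of ginkgetin cells). Replicate 3 of each group stood apart: it shared at most 1 barcode with any library of replicates 1 and 2, whereas libraries of the same barcode set shared 10 to 85, and 3199 genes had UMIs in only one of the 2 sets and entered no test. Ratios within each set are therefore given beside the pooled ones. Levels below are CPM, the UMIs of a gene per 1000000 UMIs of all cells of a class in a library, and compare 1 gene between cells, not genes with each other.

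Kupffer-like cells numbered 640, 376 and 382 in the 3 vehicle libraries and 89, 192 and 512 in the ginkgetin libraries. All 8 Kupffer markers were detected in every library, with summed levels of 12230 to 15295 CPM in vehicle and 13011 to 17380 CPM in ginkgetin. Single markers differed more than the sum, given here as a description since the markers named the class: the resident markers Cd163 (5.54 to 25.2 against 478 to 552 CPM), Timd4 (74.0 to 83.1 against 312 to 497) and Marco (54.4 to 97.03 against 536 to 815) and also Vsig4 (1704 to 1948 against 2600 to 2656) were higher in every ginkgetin library, and Folr2 (910 to 1061 against 593 to 844) was lower. Different clusters held the Kupffer-like cells of the 2 groups: clusters 5 and 23 held 71.2% and 26.8% of the vehicle cells, while clusters 19 and 28 held 63.6% and 34.0% of the ginkgetin cells. All 8 markers passed the naming rule (in 25% of cells and 2-fold over the other cells) in clusters 19 and 28, but Marco and Cd163 did not in clusters 5 and 23, nor did Timd4 in cluster 5. The Kupffer-like class is therefore not of one make-up in the 2 groups, and the part of this in the values below was not tested. The depth of the cells also differed, with median UMIs per cell of 6853.5 to 20130.5 in vehicle and 1892 to 2218 in ginkgetin. Macrophage-like cells (533, 325 and 711 against 13, 48 and 37) came mostly from clusters 9 and 13 (54.5% and 45.0% of vehicle, 55.1% and 36.7% of ginkgetin cells). Cluster 51, led by Retnla, Saa3 and Prg4, held 0.510% of the vehicle and 8.16% of the ginkgetin cells, 7 of these 8 in ginkgetin 2. All 10 macrophage markers were detected in every library, at summed levels of 18544 to 21906 CPM in vehicle and 15778 to 18147 CPM in ginkgetin. Endothelial-like cells, taken as the neighbours of Kupffer cells, lay in clusters 2 and 25 in vehicle (79.8% and 16.8%) and in clusters 0, 8 and 10 in ginkgetin (61.9%, 18.9% and 17.4%). Monocyte-like cells numbered 489 to 883 in vehicle and 120 to 216 in ginkgetin libraries, with clusters 3 and 16 holding 63.9% and 26.9% of the vehicle and 55.4% and 17.9% of the ginkgetin cells, and clusters 36 and 43, led by Ace, 6.54% and 2.71% against 17.0% and 9.70%. Dendritic-like cells, the sum of cDC1, cDC2, pDC and mature dendritic cells (mature DC), numbered 235 to 500 and 144 to 335, of which pDC were 98, 49 and 28 in vehicle and 24, 102 and 43 in ginkgetin libraries. These 4 subsets are named from markers like the other classes.

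Across the cell classes each factor had its own order of levels. Spic was close to restricted to macrophages, with 104 ± 59.0 CPM in Kupffer-like cells (SD, n = 6 libraries), 21.2 ± 6.99 in macrophage-like and 10.6 ± 3.14 in monocyte-like cells, and a mean of 3.0 CPM or less in every other class. Kupffer-like and macrophage-like libraries did not overlap for Spic, while macrophage-like and monocyte-like libraries did. Maf was highest in endothelial-like cells, at 1920 ± 484 CPM (n = 6), without overlap with Kupffer-like cells at 555 ± 311, and these overlapped macrophage-like cells at 435 ± 167. The next class, T cell-like cells, reached 217 ± 56.0 CPM, and dendritic-like classes stayed between 9.60 and 26.9.

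Id1 and Id3 were not macrophage-restricted. Id3 was at 1278 ± 237 CPM in endothelial-like, 1277 ± 259 in stellate-like, 1054 ± 85.0 in Kupffer-like and 987 ± 137 in macrophage-like cells (n = 6), and these neighbours in the order overlapped each other, whereas the macrophage-like libraries stood clear of cholangiocyte-like cells at 492 ± 166. Id1 led in cholangiocyte-like cells at 508 ± 173 CPM, clear of endothelial-like cells at 218 ± 33.1, and these overlapped macrophage-like (199 ± 101) and Kupffer-like cells (191 ± 68.0). Zeb2, a repressor of the zinc-finger family, had its 4 highest levels in monocyte-like (517 ± 134 CPM), Kupffer-like (494 ± 244), macrophage-like (457 ± 120) and stellate-like cells (450 ± 219), which all overlapped their neighbours, and cDC1 stood at only 16.3 ± 7.15 against 211 ± 44.1 in cDC2.

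Irf8 had its highest levels in dendritic subsets, and Irf4 led in plasma cell-like cells. Batf3 was highest in mature DC and cDC1, which stood clear of the macrophage and monocyte classes, while cDC2 overlapped these. Irf8 was at 3080 ± 559 CPM in pDC and 1599 ± 393 in cDC1 (n = 6), the 2 classes did not overlap, and cDC1 did not overlap mature DC at 466 ± 229 (n = 5). Kupffer-like, macrophage-like and monocyte-like cells held Irf8 at 301 ± 76.4, 300 ± 53.2 and 244 ± 40.0 CPM. Batf3 was at 218 ± 66.1 CPM in mature DC, 218 ± 28.3 in cDC1 and 137 ± 33.7 in cDC2, overlapping neighbours. It was at 89.0 to 106 in the macrophage and monocyte classes, of which Kupffer-like cells overlapped cDC2 and monocyte-like cells stood clear of pDC at 11.6 ± 10.2. Irf4 was highest in plasma cell-like cells (175 ± 100 CPM), then B cell-like (75.6 ± 38.1) and cDC2 (48.2 ± 37.2), each overlapping the next. Spi1 was at 353 to 621 CPM in monocyte-like, macrophage-like, Kupffer-like, cDC1, cDC2 and mature DC, at 117 in pDC and 87.5 in B cell-like cells, and at 5.30 to 12.95 in non-myeloid classes other than B and plasma cells. Library vehicle 1 was the lowest for Spi1 in each of these 6 myeloid classes, with 264 CPM in Kupffer-like cells against 543 and 596 in the other two vehicle libraries, and 337 against 750 and 740 in monocyte-like cells.

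**Figure D1:**
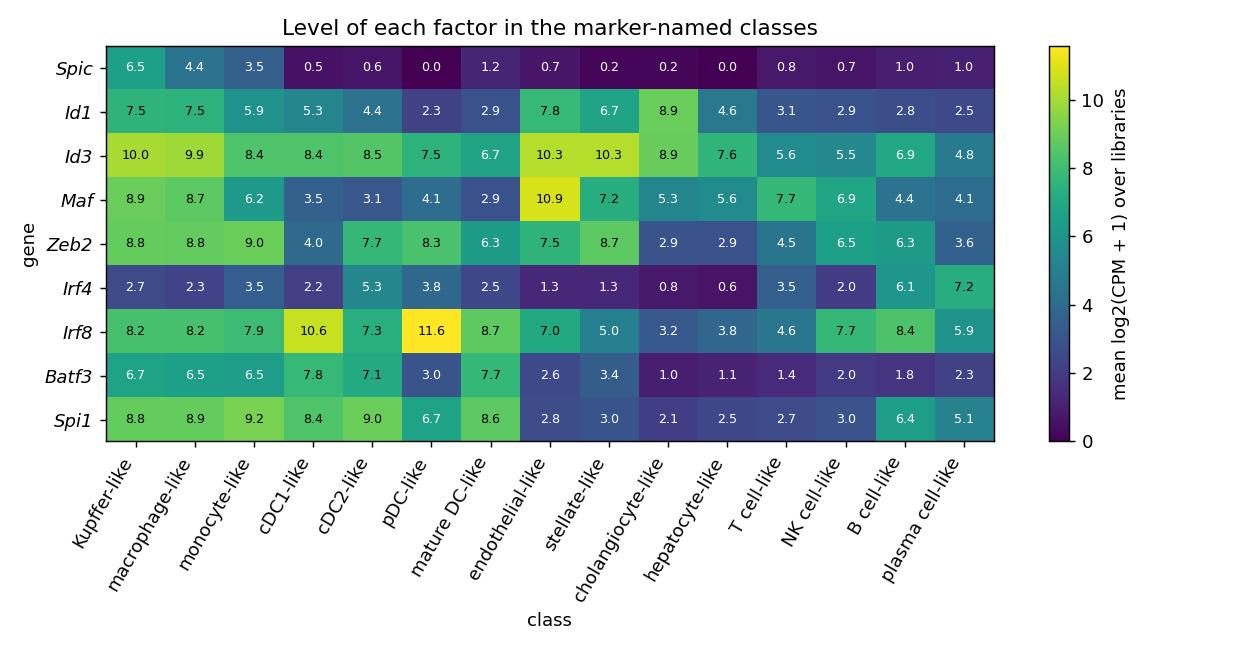
Heat map of the 9 factors (vertical axis) in the 15 cell classes (horizontal axis), where colour and printed value give the mean of log2(CPM + 1) over libraries of both groups and compare 1 gene between classes. Spic is bright only towards Kupffer-like, macrophage-like and monocyte-like cells, Irf8 peaks in pDC at a mean of 3080 CPM, and Maf peaks in endothelial-like cells at a mean of 1920 CPM.

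Genes whose level ran most like a factor's were taken over 88 class-by-library sums of 15 classes, among 10118 genes, as Pearson's r of log2(CPM + 1). The sums share libraries and depth, so r is a description. Spic ran closest to Fpr1 (0.89), Adamdec1 (0.88) and Siglec1 (0.87), and Maf to Ptgs1 (0.81), Mertk (0.78) and Ocrl (0.77). Id1 ran closest to Mmp14 (0.85), App (0.83) and Ctnnd1 (0.83), and Id3 to Tgm2 (0.88), Fcgrt (0.84) and Ifitm2 (0.82). For Zeb2 these were Pltp (0.80), Fam49a (0.77) and Ctsa (0.77), and for Irf4 Tnfrsf13b (0.74), Ero1lb (0.71) and Ctse (0.70). Irf8 was nearest to Ier5 (0.82), Uvrag (0.82) and BC035044 (0.80), Batf3 to Bcl2a1a (0.88), Plbd1 (0.87) and Aif1 (0.85), and Spi1 to the class II antigen genes H2-Aa (0.93) and H2-Eb1 (0.92) and to Rassf4 (0.92). Among the members themselves the highest r was 0.84 between Batf3 and Spi1, followed by 0.80 between Id1 and Id3, and Irf4 was lowest with Id1 (-0.51).

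The ginkgetin and vehicle libraries were compared in each class by edgeR's quasi-likelihood test on the summed UMIs. A gene was called at a Benjamini-Hochberg adjusted p below 0.05 over all genes tested and a fold above 2. In Kupffer-like cells 1114 of 8856 genes were called (12.6%), 533 of them higher (6.02%) and 581 lower (6.56%) in ginkgetin. Scaled to library totals in place of the TMM method, the split became 1523 higher and 205 lower, and the median log2 fold change over all genes moved from 0.04 to 0.51. In the other classes that median moved from 0.01 to 0.32 (macrophage-like), -0.01 to 0.16 (endothelial-like), 0.02 to 0.14 (monocyte-like) and 0.02 to 0.08 (dendritic-like). All 9 members were tested in Kupffer-like cells and 1, Irf4, was called. Their median log2 fold change was -0.13, against 0.04 for all genes.

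Irf4 rose in Kupffer-like cells from a very low level. It stood at 0.720, 1.07 and 2.08 CPM in vehicle libraries 1, 2 and 3 and at 11.7, 15.4 and 32.4 CPM in ginkgetin libraries 1, 2 and 3. Every ginkgetin library lay above every vehicle library. The log2 fold change was 3.61 ± 0.46 (SE, n = 3 per group, edgeR adjusted p = 0.0029), and the ratio of mean CPM was 15.4, with 15.2 within replicates 1 and 2 and 15.6 within replicate 3. Few molecules stood behind it: 5, 3 and 15 Irf4 UMIs in the vehicle libraries and 3, 7 and 57 in the ginkgetin libraries. It was called with each of the 6 libraries left out, at log2 fold changes of 3.01 to 4.16 and adjusted p of 0.0052 to 0.0384. When every cell was thinned to 1000 UMIs, 1 of 640, 0 of 376 and 0 of 381 vehicle Kupffer-like cells held an Irf4 UMI, and 2 of 89, 4 of 192 and 19 of 455 ginkgetin cells did (57 and 1 shallower cells were left out in ginkgetin 3 and vehicle 3). The ginkgetin shares were 2.25%, 2.08% and 4.18%, with exact Clopper-Pearson 95% intervals of 0.273 to 7.88%, 0.570 to 5.25% and 2.53 to 6.44%. The vehicle share of 0.156% in replicate 1 had an interval of 0.0040 to 0.867%, and the counts of 0 allow up to 0.798% and 0.787%. These intervals cover counting error only. Without thinning the shares were 0.781%, 0.798% and 3.93% in vehicle and 3.37%, 3.65% and 9.96% in ginkgetin. T cell-like cells, at median depths of 2622.5 to 6338 UMIs, held Irf4 in 0.508 to 2.58% of thinned cells, and endothelial-like cells, which are not known for Irf4, in 0 to 0.414% at median depths of 2243 to 7578 UMIs. The endothelial-like shares were themselves higher in ginkgetin, at 0.358 ± 0.052% against 0.0992 ± 0.101% in vehicle (SD, n = 3). The thinned ginkgetin shares in Kupffer-like cells lay above all 6 endothelial-like libraries, but those of ginkgetin 1 and 2 fell inside the T cell-like range. The exact permutation test of the shares gave a two-sided p = 0.10 (adjusted p = 0.375 over 45 comparisons), the smallest that 3 against 3 libraries allow.

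In Kupffer-like cells the summed endothelial, T cell, neutrophil and macrophage marker lists separated the groups, while the B cell and plasma cell lists overlapped. All 10 endothelial markers were detected in every library, with summed levels of 309 to 387 CPM in vehicle and 1100 to 1947 CPM in ginkgetin, against 9750 to 19144 in endothelial-like cells. The 5 B cell markers summed to 23.7 to 29.9 CPM in vehicle and 27.4 to 171 CPM in ginkgetin, with Cd79a, Ms4a1 and Fcmr at 0 in ginkgetin 1, and the 5 plasma cell markers to 65.1 to 240 and 102 to 827 CPM, with Sdc1 at 0 in ginkgetin 1 and 2. The 6 T cell markers summed to 3.32 to 9.36 CPM in vehicle and 35.2 to 52.7 CPM in ginkgetin, with Trac and Trbc2 at 0 in all libraries of replicates 1 and 2, Cd28 in vehicle 2 and Cd3e in ginkgetin 1, and T cell-like cells themselves held Irf4 at 3.77 to 18.9 CPM. The 8 neutrophil markers summed to 70.8 to 95.02 CPM in vehicle and 114 to 316 CPM in ginkgetin, with 3 to 6 of the 8 detected and Ly6g at 0 in all 6 libraries. The 10 macrophage markers were the list with lower sums in ginkgetin, 12938 to 14543 against 19673 to 22995 CPM in vehicle, with Gpnmb at 0 in ginkgetin 2. The part of these lists in the Irf4 difference, and that of the depth and of the different clusters, was not tested.

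**Figure D2:**
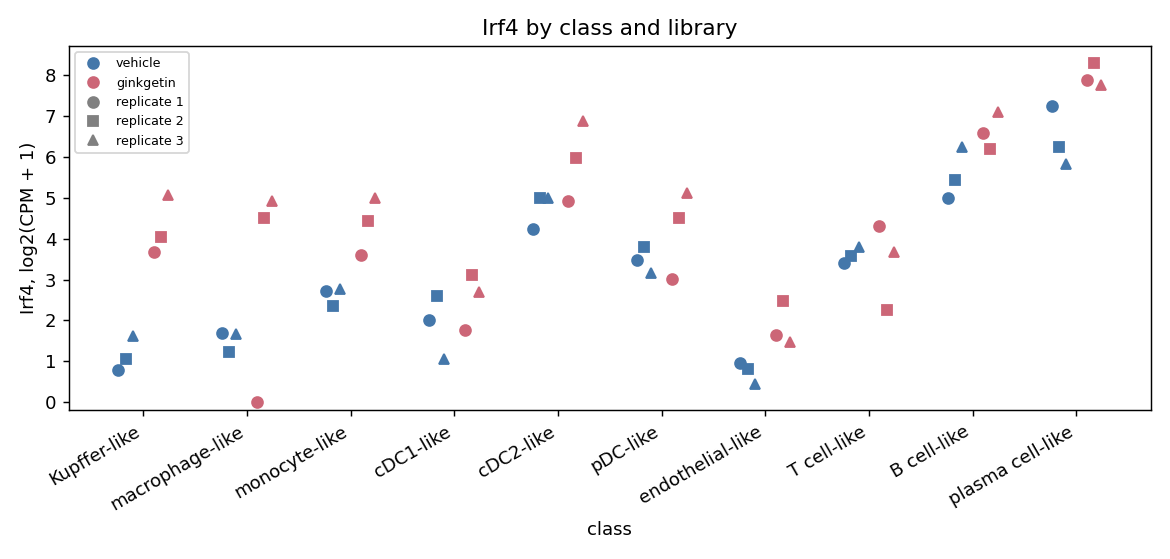
Irf4 by library in 10 classes (horizontal axis), as log2(CPM + 1) on the vertical axis, with colours for 3 vehicle and 3 ginkgetin libraries and marker shapes for the replicate number. In Kupffer-like cells the vehicle libraries lie between 0.720 and 2.08 CPM and the ginkgetin libraries between 11.7 and 32.4 CPM, while plasma cell-like cells have the highest mean in both groups.

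Maf, a large basic leucine zipper factor of resident macrophages, was higher in the ginkgetin libraries of both macrophage classes, but passed no call. In Kupffer-like cells it stood at 269, 346 and 300 CPM in vehicle libraries 1, 2 and 3 and at 697, 650 and 1068 CPM in ginkgetin libraries 1, 2 and 3. The groups did not overlap, and the ratio of means was 2.64 (2.19 within replicates 1 and 2, 3.57 within replicate 3). After TMM scaling the log2 fold change was 0.96 ± 0.25 (SE, n = 3 per group) with an edgeR adjusted p of 0.0340, a fold below 2. Leaving out any 1 of the 6 libraries ended that: the adjusted p ranged from 0.0610 without vehicle 3 to 0.134 without vehicle 1, at log2 fold changes of 0.77 to 1.08. The filter on the UMI range gave 0.50 (adjusted p = 0.423), no gene filter 0.83 (0.0703), and library totals 1.42 (0.0084), a call in the last alone.

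In macrophage-like cells Maf was at 279, 286 and 285 CPM in vehicle and 579, 562 and 618 CPM in ginkgetin libraries, a ratio of 2.07 (2.02 and 2.17 within the barcode sets) with spreads of 3.89 and 28.6 CPM (SD, n = 3). The vehicle libraries lay within a few CPM of each other and well below all ginkgetin libraries. On the TMM scale the log2 fold change was 0.75 ± 0.23 and the adjusted p 0.139 (edgeR), and with the replicate number as a block it was 0.75 with an adjusted p of 0.0075, still under a fold of 2. On library totals it was called at 1.06 (adjusted p = 0.0366). When macrophage-like cells were instead picked by a gate on marker UMIs, which took 530 to 1005 cells per vehicle and 50 to 92 per ginkgetin library, the log2 fold change was 0.19 (adjusted p = 0.789). Within cluster 9, which both groups shared, Maf was at 280 and 291 CPM in the vehicle and 579 and 595 CPM in the ginkgetin libraries of replicates 1 and 2, and within cluster 13 at 286 CPM in vehicle 3 and 651 CPM in ginkgetin 3.

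The share of cells with a Maf UMI, thinned to 1000 UMIs, was 27.1 ± 3.44% in vehicle and 54.3 ± 8.02% in ginkgetin Kupffer-like cells, and 24.3 ± 2.77% and 51.5 ± 9.94% in macrophage-like cells (SD, n = 3, exact permutation p = 0.10 in both, adjusted p = 0.375). Unthinned, the direction in Kupffer-like cells turned, with 84.4%, 83.2% and 89.5% of the deeper vehicle cells against 76.4%, 69.8% and 85.0% of the ginkgetin cells. B cell-like cells held Maf in 1.14 to 5.40% of thinned cells, at median depths of 1880 to 3705 UMIs.

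Endothelial-like cells carried the highest Maf level and their markers moved with the same groups. The 10 endothelial markers summed to 59.1 to 91.2 CPM in vehicle and 171 to 1232 CPM in ginkgetin macrophage-like cells, with 5 markers at 0 in ginkgetin 1 (Kdr, Stab2, Clec4g, Tek, Lyve1) and 3 in ginkgetin 3 (Kdr, Tek, Lyve1). The T cell, B cell and plasma cell sums were also higher there in every ginkgetin library, at 11.8 to 60.5 against 4.02 to 8.59, 50.01 to 77.8 against 46.1 to 47.1 and 70.6 to 549 against 49.3 to 62.8 CPM, and the Kupffer marker sum was lower, at 503 to 1016 against 1451 to 1836 CPM. In monocyte-like cells Maf was at 71.6, 85.7 and 75.9 CPM in vehicle and 61.7, 85.1 and 69.3 CPM in ginkgetin (log2 fold change -0.20 ± 0.25, adjusted p = 0.727). The part of endothelial RNA, and of the other marker lists, in the Maf values of the 3 classes was not tested.

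**Figure D3:**
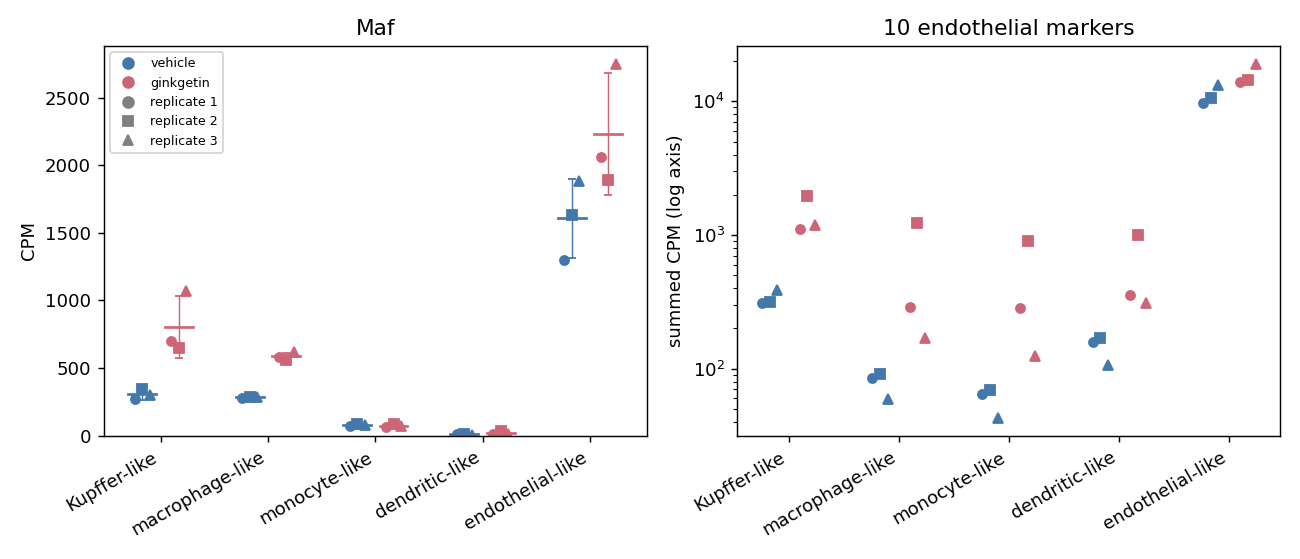
Maf level by library (left, CPM, bars are mean ± SD of 3 libraries) and the summed level of the 10 endothelial markers in the same classes and libraries (right, CPM on a log axis), for vehicle and ginkgetin. Both are higher in all 3 ginkgetin libraries of Kupffer-like and macrophage-like cells, and in monocyte-like cells Maf, at 61.7 to 85.7 CPM, overlaps between the groups.

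Spic, the haem-induced factor of red pulp and liver macrophages, was at 54.4, 59.7 and 88.9 CPM in vehicle and 66.5, 167 and 190 CPM in ginkgetin Kupffer-like cells. Ginkgetin 1 fell inside the vehicle range, so the groups overlapped. The log2 fold change of 0.66 ± 0.30 had an edgeR adjusted p of 0.153, and with the replicate block 0.61 and 0.0464, under a fold of 2. Thinned to 1000 UMIs, 6.49 ± 1.24% of vehicle and 13.3 ± 6.17% of ginkgetin Kupffer-like cells held a Spic UMI (exact permutation p = 0.20, adjusted p = 0.562), and the direction turned without thinning. In T cell-like cells the thinned share was 0 to 0.397%. Macrophage-like cells held Spic at 20.7, 14.4 and 27.8 CPM in vehicle and 30.5, 12.97 and 20.6 in ginkgetin, with both groups over the same range.

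Id3 and Id1 gave no call in macrophages. Id3 was at 1171, 999 and 1150 CPM in vehicle and 1029, 1014 and 964 CPM in ginkgetin Kupffer-like cells, overlapping ranges, with a log2 fold change of -0.55 ± 0.26 (adjusted p = 0.161). With the replicate block it was -0.56 at an adjusted p of 0.0486, under a fold of 2. Id1 was at 169, 167 and 178 CPM in vehicle and 215, 108 and 311 CPM in ginkgetin Kupffer-like cells, so the ginkgetin libraries lay on both sides of the vehicle ones (log2 fold change -0.13 ± 0.32, adjusted p = 0.809). The sign of Id1 turned on library totals (0.33).

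Zeb2 stood at 275, 352 and 467 CPM in vehicle and 391, 514 and 962 CPM in ginkgetin Kupffer-like cells, ranges that overlapped (log2 fold change 0.33 ± 0.30, adjusted p = 0.462). Irf8, Batf3 and Spi1 had log2 fold changes of -0.53 ± 0.25, -0.22 ± 0.21 and -0.38 ± 0.32 there, with adjusted p of 0.165, 0.490 and 0.430, and the signs of Batf3 and Spi1 turned on library totals (0.22 and 0.01). On the CPM scale Batf3 was higher in each ginkgetin library, at 84.9, 106 and 105 CPM in vehicle and 110, 110 and 121 CPM in ginkgetin. Macrophage-like libraries also did not overlap for Batf3, at 69.4, 85.1 and 61.2 CPM in vehicle and 152, 121 and 91.2 CPM in ginkgetin (ratio 1.69). In macrophage-like cells 59 of 7934 genes were called (0.744%). Irf4 did not pass the filter on low counts there, and 0 of the other 8 members was called by edgeR or DESeq2. Maf alone had an unadjusted p under 0.05, where 18.0% of all genes did, and the median log2 fold change of the 8 was -0.04 against 0.01 for all genes. Macrophage-like Irf4 was at 2.25, 1.34 and 2.19 CPM in vehicle and at 0, 21.6 and 29.4 CPM in ginkgetin, from 11, 4 and 24 against 0, 5 and 10 UMIs, where 0 of 65630 UMIs allows up to 45.7 CPM.

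**Figure D4:**
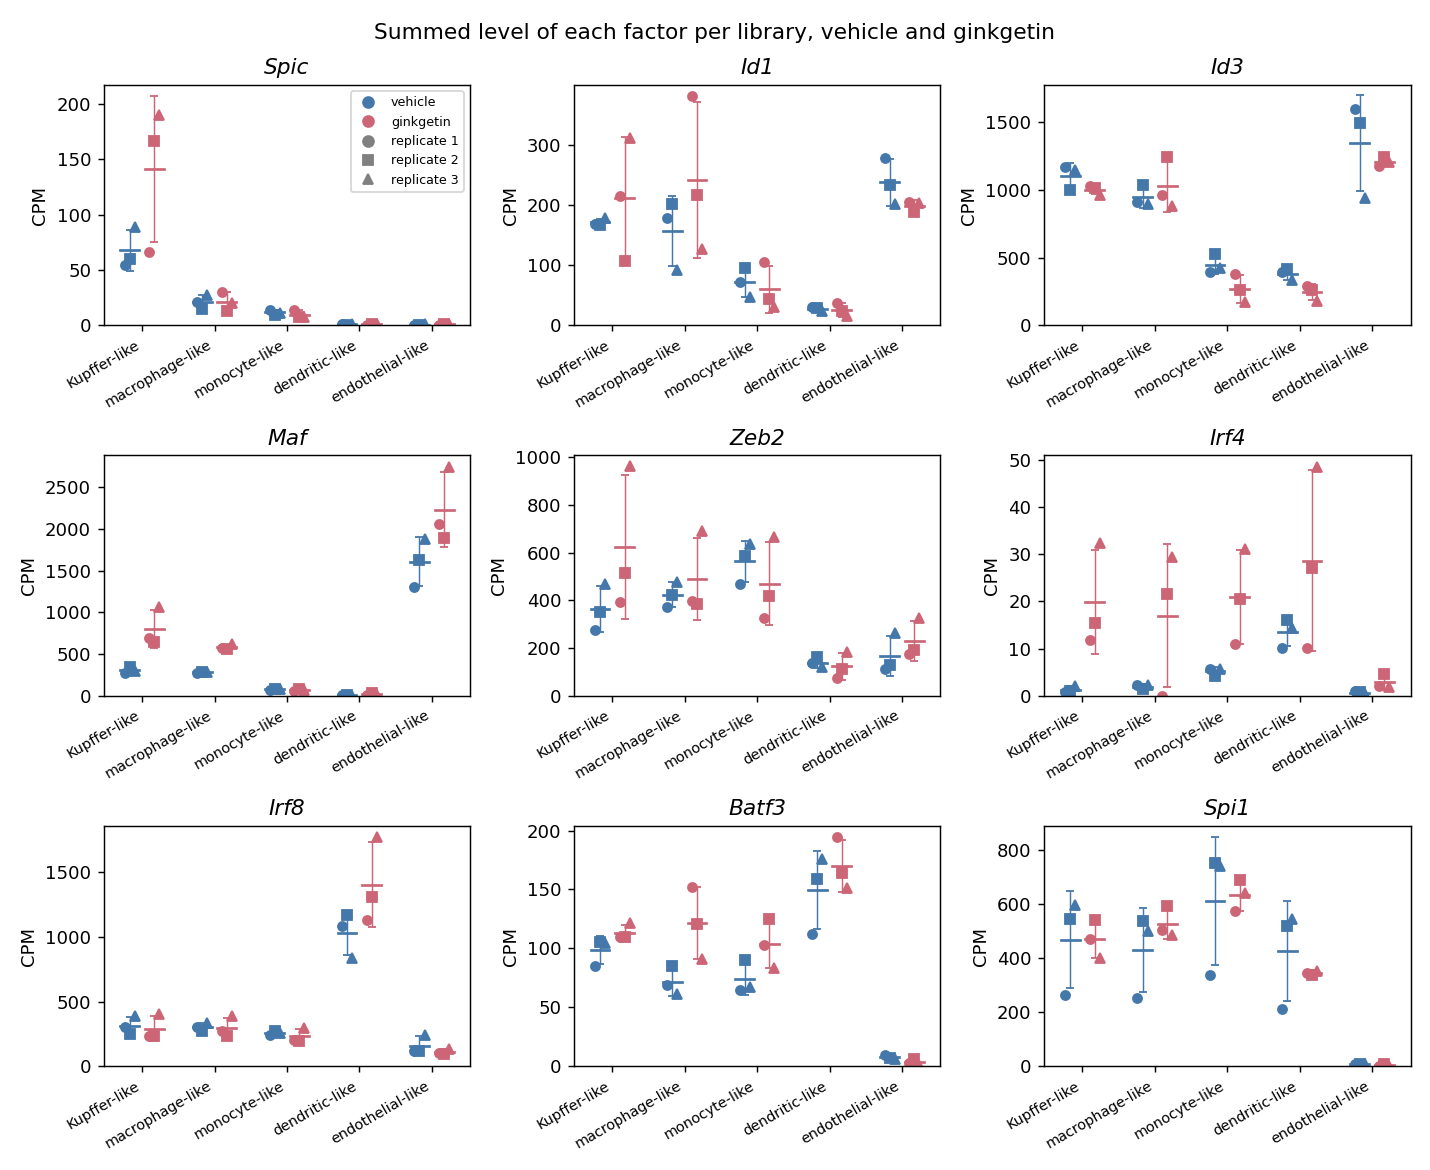
CPM of each of the 9 factors by library in Kupffer-like, macrophage-like, monocyte-like, dendritic-like and endothelial-like cells, with bars for the mean ± SD of 3 libraries and marker shapes for the replicate number. Irf4, Maf and Batf3 in Kupffer-like cells have no overlap between vehicle and ginkgetin, Spic overlaps, and vehicle replicate 1 is the lowest library for Spi1 in the 4 myeloid classes.

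In monocyte-like cells 3 of 8171 genes were called (0.0367%), and 0 of the 9 members, of which Irf4 alone had an unadjusted p under 0.05, where 16.1% of all genes did. Irf4 was at 5.62, 4.15 and 5.77 CPM in vehicle and at 11.1, 20.5 and 31.1 CPM in ginkgetin, from 32, 12 and 31 against 7, 20 and 35 UMIs. The lowest ginkgetin library was above the highest vehicle library. The log2 fold change was 1.90 ± 0.33 (n = 3 per group) with an edgeR adjusted p of 0.0726. With the replicate number as a block it was 1.88 at an adjusted p of 0.0168, a call in a fit that called 315 genes (3.86%), and DESeq2 called it too (1.91, adjusted p = 0.0023). The ratio of means was 4.03, with 3.23 within replicates 1 and 2 and 5.39 within replicate 3. Thinned shares of cells with an Irf4 UMI were 0.340%, 0.204% and 0.514% in vehicle and 0.833%, 3.70% and 4.69% in ginkgetin, and those of ginkgetin 1 lay within the T cell-like range of 0.508 to 2.58%. The B cell markers in monocyte-like cells summed to 16.9 to 41.3 CPM in vehicle and 12.7 to 84.1 CPM in ginkgetin, and the plasma cell markers to 54.3 to 88.5 and 54.2 to 447 CPM, both lists with overlap. The 6 T cell markers separated the groups there, at 4.47 to 8.78 CPM in vehicle and 17.8 to 25.6 CPM in ginkgetin, with 3 to 6 detected and Trac and Trbc2 at 0 in all libraries of replicates 1 and 2. So did the 10 endothelial markers, at 42.8 to 69.5 against 125 to 907 CPM, with Lyve1 at 0 in ginkgetin 1 and 3. The macrophage and Kupffer lists separated them in the other direction, the 10 macrophage markers, all detected in every library, at 2899 to 3103 CPM in vehicle and 1971 to 2609 CPM in ginkgetin, and the 8 Kupffer markers, 6 to 8 of them detected, at 60.9 to 113 and 25.8 to 57.4 CPM. Within cluster 3 Irf4 was at 5.42 and 4.37 CPM in vehicle and 10.5 and 21.7 CPM in ginkgetin libraries 1 and 2, and within cluster 16 at 5.36 CPM in vehicle 3 and 36.8 CPM in ginkgetin 3, from 6 to 31 UMIs each. The part of these lists in the Irf4 values was not tested.

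Id3 had its lower values in ginkgetin over all monocyte-like cells, although the groups overlapped within their largest cluster. It was at 394, 524 and 422 CPM in vehicle and 381, 257 and 174 CPM in ginkgetin, with no overlap and a ratio of 0.607 (0.696 and 0.412 within the barcode sets). The log2 fold change of -0.76 ± 0.39 had an adjusted p of 0.372. The macrophage and Kupffer marker sums, of classes with mean Id3 levels of 987 and 1054 CPM, were also lower in each ginkgetin library of monocyte-like cells, as given with Irf4, and their part in the Id3 values was not tested. Within cluster 3 Id3 was at 407 and 539 CPM in vehicle and 417 and 260 CPM in ginkgetin libraries 1 and 2, which overlapped, and within cluster 16 at 441 CPM in vehicle 3 and 214 CPM in ginkgetin 3. Clusters 36 and 43, which held larger shares of the ginkgetin cells, had Id3 at 151 to 233 CPM in vehicle and 33.9 to 242 CPM in ginkgetin. Zeb2 overlapped between the groups at 469, 587 and 636 CPM against 328, 417 and 665, as did Irf8 at 241, 272 and 254 against 204, 193 and 297. Spi1 and Batf3 had log2 fold changes of -0.02 ± 0.35 and 0.41 ± 0.30 (adjusted p = 0.984 and 0.529). Over the 9 members the median was -0.26 against 0.02 for all genes.

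In dendritic-like cells edgeR called 0 of 9020 genes (0.0%), with 1563 at an unadjusted p under 0.05 and 135 called by DESeq2. Spic did not pass the filter, and 0 of the other 8 members was called by either tool, with Irf4 alone at an unadjusted p under 0.05, where 17.3% of all genes were. Id3 was at 392, 418 and 333 CPM in vehicle and 294, 264 and 177 CPM in ginkgetin, again without overlap (ratio 0.642, and 0.688 and 0.531 within the barcode sets), at a log2 fold change of -0.62 ± 0.34 and an adjusted p of 0.377. In cDC1, cDC2 and pDC each ginkgetin library was below the vehicle libraries for Id3, with 402, 485 and 331 against 299, 307 and 216 CPM in cDC1, 459, 475 and 404 against 338, 275 and 247 CPM in cDC2 and 254, 286 and 237 against 157, 174 and 65.6 CPM in pDC. In mature DC the groups overlapped, at 128, 120 and 100 CPM in vehicle and 119 and 71.5 CPM in ginkgetin libraries 2 and 3. Marker sums of other classes separated the groups in dendritic-like cells too, with the 10 macrophage markers at 675 to 720 CPM in vehicle and 307 to 503 CPM in ginkgetin (Gpnmb at 0 in ginkgetin 1, Trem2 in ginkgetin 3), the 10 endothelial markers, all detected, at 107 to 170 and 309 to 995 CPM, and the 5 plasma cell markers at 62.7 to 115.9 and 116.1 to 480 CPM (Sdc1 at 0 in ginkgetin 1). Their part in the Id3 and Irf4 values was not tested. Irf4 in cDC2, where it acts as the lineage factor, was at 17.9, 31.0 and 30.9 CPM in vehicle and 29.5, 61.8 and 118 CPM in ginkgetin, overlapping through ginkgetin 1, and over all dendritic-like cells the log2 fold change was 0.996 ± 0.39 (adjusted p = 0.244).

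The cDC1 factors overlapped between the groups in cDC1 themselves. Batf3 in cDC1 was at 162, 238 and 234 CPM in vehicle and 232, 225 and 216 in ginkgetin, and Irf8 at 1530, 1669 and 1434 against 1289, 1322 and 2350, where ginkgetin 3 was above all others and ginkgetin 1 and 2 below all vehicle libraries. In pDC Irf8 showed the same arrangement for replicate 3, with 3052, 2898 and 2799 CPM against 2811, 2723 and 4199. In mature DC Irf8 did not overlap, at 216, 381 and 325 CPM in vehicle and 641 and 765 CPM in ginkgetin libraries 2 and 3, from 10 and 21 cells in the latter. Over all dendritic-like cells its log2 fold change was 0.38 ± 0.28 (adjusted p = 0.520), and the thinned share of cells with an Irf8 UMI was 39.6 ± 4.17% in vehicle and 54.0 ± 4.68% in ginkgetin (SD, n = 3, exact permutation p = 0.10, adjusted p = 0.375). The pDC clusters 29 and 47 held 13.6% and 2.59% of the vehicle and 19.4% and 6.61% of the ginkgetin dendritic-like cells. Their part in the Irf8 share was not tested. Batf3 in cDC2 was at 87.1, 124 and 114 CPM in vehicle and 166, 170 and 160 in ginkgetin, which did not overlap. Maf, at 9.15, 13.1 and 3.55 against 12.4, 31.4 and 13.5 CPM in dendritic-like cells, had a log2 fold change of 1.20 ± 0.55 (adjusted p = 0.301), and ginkgetin 2, its highest library, also had the highest endothelial marker sum (995 CPM against 309 to 355 in the other ginkgetin and 107 to 170 in the vehicle libraries), whose part in the Maf values was not tested. Among the subsets Maf separated the groups in cDC2, at 7.92, 1.29 and 2.57 against 13.4, 30.3 and 12.3 CPM (ratio 4.75). It overlapped in cDC1, pDC and mature DC. Beyond these, B cell-like (11.8 to 13.8 against 14.2 to 56.9 CPM) and hepatocyte-like cells (7.91 to 42.2 against 121 and 155 CPM) did not overlap for Maf. T cell-like, NK cell-like, plasma cell-like, stellate-like and cholangiocyte-like cells did.

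Endothelial-like cells gave 141 called genes of 9822 (1.44%). Spic and Irf4 did not pass the filter, and 0 of the other 7 members was called by edgeR or DESeq2, with Irf8 alone at an unadjusted p under 0.05, where 14.9% of all genes were. Maf stood at 1301, 1634 and 1885 CPM in vehicle and 2061, 1890 and 2746 CPM in ginkgetin. The groups came close without overlapping, and the log2 fold change was 0.30 ± 0.25 (adjusted p = 0.645). Id1 was at 278, 234 and 201 against 204, 188 and 204 CPM (-0.45 ± 0.25, adjusted p = 0.468) and Id3 at 1599, 1497 and 942 against 1176, 1246 and 1207 CPM (-0.36 ± 0.34, adjusted p = 0.696), both with overlap. Irf8 had a log2 fold change of -0.65 ± 0.24 with an adjusted p of 0.253 (0.0331 with the replicate block, under a fold of 2), and Batf3, at no more than 9.42 CPM, -1.24 ± 0.61 and 0.404. Blocked on the barcode set, Batf3 was called (-1.36, adjusted p = 0.0465) in a fit that called 480 genes (4.89%), and with the replicate block it was not (-1.43, adjusted p = 0.0596). Irf4, untested there, was at 0.942, 0.764 and 0.367 CPM in vehicle and 2.13, 4.60 and 1.79 CPM in ginkgetin endothelial-like cells, low levels with no overlap. The ratio of mean CPM for Irf4 was 4.10 in this class, with 3.94 within replicates 1 and 2 and 4.86 within replicate 3. The marker sums of 2 classes separated the groups in endothelial-like cells, the 10 macrophage markers at 396 to 714 CPM in vehicle and 189 to 261 CPM in ginkgetin (Gpnmb at 0 in ginkgetin 1, Cx3cr1 in ginkgetin 3) and the 10 endothelial markers, all detected, at 9750 to 13194 and 13993 to 19144 CPM. Their part in the values of Irf8, Batf3 and Maf was not tested. The median over the 7 members was -0.45 against -0.01 for all genes.

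The group effect in Kupffer-like cells was also set against that in endothelial-like cells, with the library as a block. At an adjusted p below 0.05, 1581 of 10703 genes differed (14.8%), and 0 of the 9 members, by edgeR or DESeq2, with 1, Batf3, at an unadjusted p under 0.05, where 3136 of the 10703 genes were. The difference of the log2 fold changes, Kupffer-like minus endothelial-like, was 0.49 ± 0.23 for Maf (adjusted p = 0.172), -0.44 ± 0.26 for Id3 (0.284), -0.21 ± 0.23 for Zeb2 (0.596) and 0.08 ± 0.30 for Id1 (0.904). On library totals Maf passed (0.90, adjusted p = 0.0117) and the sign of Zeb2 turned (0.21).

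**Figure D5:**
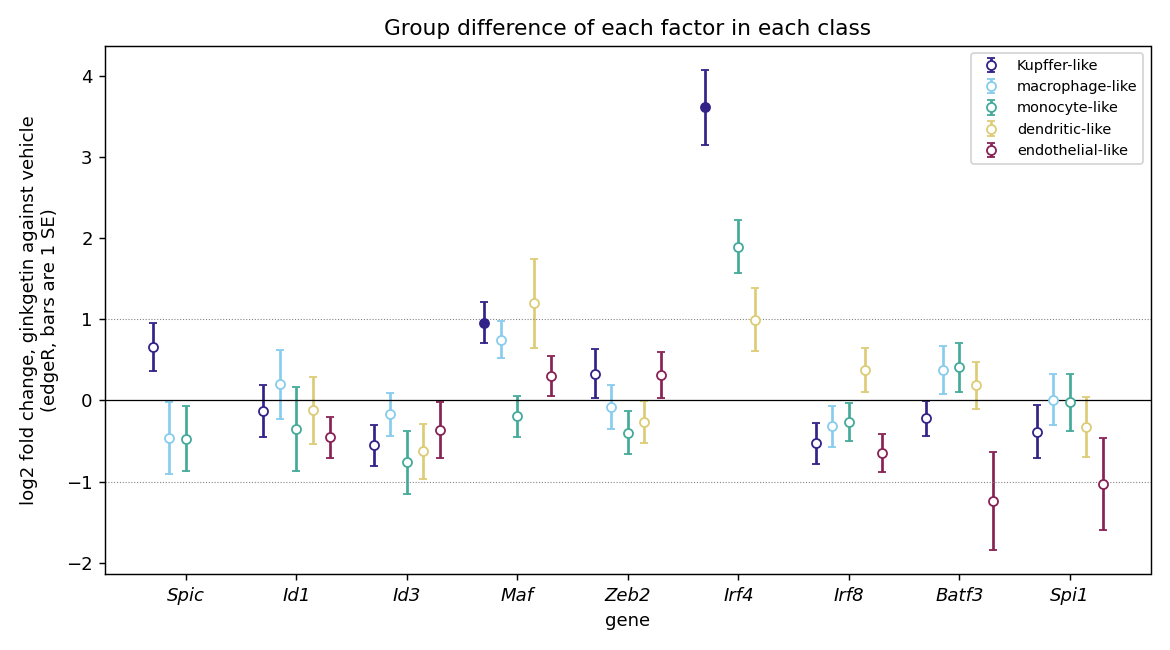
log2 fold change (ginkgetin over vehicle, TMM scale) of each factor in the 5 classes, with bars of 1 SE from edgeR on 3 libraries per group, filled symbols for an adjusted p below 0.05 and dotted lines at a fold of 2. The filled symbols are Irf4 at 3.61 and Maf at 0.96, both in Kupffer-like cells.

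In addition, 3 lists of related genes were read beside the members. Of 31 other macrophage and monocyte factors, 28 were tested in Kupffer-like cells, 3 were higher and 2 lower, where 6.02% of all genes were higher and 6.56% lower (12.6% called), and the list median was 0.11 against 0.04 for all genes. Pparg, a lipid-sensing nuclear receptor, fell from 33.0, 27.7 and 36.8 CPM in vehicle to 3.91, 8.78 and 10.2 CPM in ginkgetin (log2 fold change -2.37 ± 0.29, adjusted p = 0.0029). Atf3, a stress-induced repressor, fell from 146, 173 and 387 to 86.1, 92.2 and 76.8 CPM (-1.86 ± 0.35, adjusted p = 0.0103). Klf2, a flow-responsive factor that is also abundant in endothelium, rose from 214, 248 and 384 to 881, 937 and 1334 CPM (1.49 ± 0.26, adjusted p = 0.0079), and its relative Klf4 rose from 34.5, 71.1 and 97.1 to 262, 160 and 340 CPM (1.51 ± 0.36, adjusted p = 0.0241). Pparg, Atf3 and Klf2 were called with each of the 6 libraries left out and Klf4 with 2 of the 6. Of 30 tested in macrophage-like, 29 in monocyte-like and 26 in dendritic-like cells, edgeR called 0, with 9, 6 and 7 at an unadjusted p under 0.05, where 18.0%, 16.1% and 17.3% of all genes were, and 2, 3 and 5 called by DESeq2, which called 3.47%, 2.13% and 1.5% of all genes. The lowest p values belonged to Runx3 (1.68 ± 0.34, adjusted p = 0.0533) and Pparg (-1.34 ± 0.31, 0.0679) in macrophage-like, Jun (-1.52 ± 0.26, 0.0703) in monocyte-like, and Jun (-1.18 ± 0.22, 0.116) and Egr1 (1.83 ± 0.39, 0.117) in dendritic-like cells. Their list medians were 0.19, -0.04 and -0.04, against 0.01, 0.02 and 0.02 for all genes. In endothelial-like cells 1 of 25 was called, against 1.44% of all genes: Pparg, lower at -2.17 ± 0.36 (adjusted p = 0.0363), and with any library left out it was not called (list median -0.07 against -0.01).

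Of 16 other dendritic factors, 11 were tested in Kupffer-like cells, 1 was higher and 1 lower, against 12.6% of all genes called (list median -0.11 against 0.04). Tcf4, the pDC factor, rose from 51.7, 56.5 and 66.9 to 137, 145 and 188 CPM (1.004 ± 0.20, adjusted p = 0.0117), and Nfil3 fell from 7.34, 11.02 and 12.9 to 0, 6.58 and 3.41 CPM (-1.98 ± 0.53, adjusted p = 0.0340). They were called with 2 and with 3 of the 6 libraries left out. In the other classes edgeR called 0 of 12 in macrophage-like, 14 in monocyte-like, 15 in dendritic-like and 12 in endothelial-like cells, with 4, 5, 7 and 4 at an unadjusted p under 0.05 (all genes 18.0%, 16.1%, 17.3% and 14.9%) and 0, 3, 0 and 1 called by DESeq2 (all genes 3.47%, 2.13%, 1.5% and 3.34%). The list medians were -0.13, 0.14, 0.17 and 0.02, against 0.01, 0.02, 0.02 and -0.01. The lowest p values were those of Notch2 (1.24 ± 0.36, adjusted p = 0.123) and Id2 (-0.66 ± 0.25, 0.201) in macrophage-like, Bcl11a (1.45 ± 0.25, 0.0703) and Ikzf3 (2.002 ± 0.41, 0.0811) in monocyte-like, Notch2 (1.14 ± 0.33, 0.164) and Batf (-0.91 ± 0.27, 0.165) in dendritic-like, and Irf7 (-1.63 ± 0.34, 0.0709) and Zbtb46 (0.60 ± 0.16, 0.137) in endothelial-like cells.

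The BMP route that feeds the Id genes was read in the same way. Its 25 genes were ligands, receptors, SMADs, Bambi, Id2, Id4 and the E proteins that Id1 and Id3 bind. Tgfb1, Tgfbr1 and Tgfbr2 of transforming growth factor beta were also on the list. In Kupffer-like cells 17 were tested, 6 were higher and 1 lower, where 6.02% of all genes were higher and 6.56% lower (12.6% called). The list median was 0.78 against 0.04 for all genes. The ligand Bmp2 rose from 2.30, 2.49 and 2.63 CPM to 11.7, 48.3 and 32.4 CPM (3.25 ± 0.41, adjusted p = 0.0029), where endothelial-like cells held it at 773, 951 and 1107 CPM in vehicle and 1657, 1228 and 2313 CPM in ginkgetin. The receptor Bmpr2 rose from 23.3, 24.2 and 33.4 to 86.1, 90.0 and 100 CPM (1.35 ± 0.20, adjusted p = 0.0051) and the E protein gene Tcf3 from 14.4, 14.6 and 19.0 to 43.1, 61.5 and 71.1 CPM (1.47 ± 0.21, adjusted p = 0.0043). Tgfbr1, a receptor of transforming growth factor beta, fell from 88.1, 94.9 and 152 to 47.0, 59.3 and 75.1 CPM (-1.27 ± 0.24, adjusted p = 0.0105). These 4 were called with each library left out. Id1 and Id3 themselves were among the members not called in that class. Endothelial markers were higher in the ginkgetin libraries of Kupffer-like cells, as given with Irf4, and their part in the Bmp2, Bmpr2 and Klf2 values was not tested. Of 17 tested in each of macrophage-like, monocyte-like and dendritic-like cells edgeR called 0, with 7, 4 and 5 at an unadjusted p under 0.05 (all genes 18.0%, 16.1% and 17.3%) and 2, 1 and 2 called by DESeq2 (all genes 3.47%, 2.13% and 1.5%). The list medians were 0.52, 0.24 and 0.39, against 0.01, 0.02 and 0.02 for all genes. Bmp2 and Bmpr2 had the lowest p in macrophage-like (2.25 ± 0.52, adjusted p = 0.0664, and 1.17 ± 0.31, 0.0902) and in monocyte-like cells (2.21 ± 0.64, 0.160, and 0.89 ± 0.27, 0.1701), and Bmp2 and Eng in dendritic-like cells (2.37 ± 0.55, 0.135, and 2.41 ± 0.66, 0.153). In endothelial-like cells 0 of 19 was called by edgeR or DESeq2, with 1 at an unadjusted p under 0.05 against 14.9% of all genes (list median 0.12 against -0.01), and the lowest p belonged to Bmp2 (0.69 ± 0.27, adjusted p = 0.279) and Tgfbr2 (0.39 ± 0.19, 0.412).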

How the data were processed

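Single-cell libraries of liver cells (3 vehicle, 3 ginkgetin) were deposited by the authors as UMI counts per gene and cell, not normalized. The builds GRCm38 and mm10 stand in the submitters' processing notes, the aligner is not given in the sources used here, and the study's methods name Seurat 4.3.0. Cells with 250 to 5000 genes and under 5% mitochondrial UMIs were kept (the methods give this range for UMIs, which was run as an alternative). Cells were clustered with scanpy 1.11.5 (2000 genes, 30 components, 15 neighbours, resolution 1) and named from fixed markers, at least 3 detected in a cluster. No doublets were removed, and the 5% of cells per library with the highest Scrublet scores were left out in an alternative.

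UMIs were summed per class and library (at least 10 cells) and tested by edgeR 4.0.16 (R 4.3.3, TMM, filterByExpr, quasi-likelihood, group as the term), with SE as the absolute log2 fold change over the root of F. DESeq2 1.42.0 was an alternative, and the fits were tested on simulated data. The members and gene lists were chosen with earlier results of these data known. All 9 members are described, with 3 genes most like each in level (no class marker, mean of 20 CPM or more in a class), and from each list up to 4 called genes per class by p, or the 2 with the lowest p. Some of the genes so named are not reported here. Same-numbered vehicle and ginkgetin libraries deviated together from their group means in all 5 classes (r 0.130 to 0.757), and the number was used as a block. These r cannot show a pairing, since replicate 3 of both groups also has its own barcode set and each mean is of 3 libraries. The block rests on the shared numbers, not on a statement in the labels. Unlike-numbered libraries of replicates 1 and 2, which share a barcode set, also deviated together (r 0.0568 to 0.380), vehicle 2 more with ginkgetin 1 than with ginkgetin 2 in 3 of the 5 classes, so for these the number and the barcode set cannot be told apart. Blocked values are given where they change a call or bring an adjusted p under 0.05. Alternatives also included the barcode set as a block, no gene filter, a gate on marker UMIs and each library left out. Totals were 13128697 to 61796882 UMIs per library, and intervals and limits from counts of 0 (3 counts) cover counting error only.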

Additional observations from a re-analysis of the deposited data

Results flagged for a closer look

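Among the genes named from the lists, 10 had effects that differed between Kupffer-like and endothelial-like cells, by the edgeR interaction term with the library as a block (adjusted p below 0.05). The difference of the log2 fold changes, Kupffer-like minus endothelial-like, was 1.30 for Klf6, 1.29 for Klf2 and 1.10 for Stat3 among the macrophage factors. It was 2.77 for Zbtb46, 0.93 for Tcf4 and -0.85 for Id2 among the dendritic factors, and 1.61 for Tcf3, 2.34 for Bmp2, 1.11 for Bmpr2 and 1.87 for Eng in the BMP route. A gene could pass the filter on low counts here through its endothelial-like level alone. Zbtb46 was at 55.8 to 88.1 CPM in vehicle and 109 to 136 CPM in ginkgetin endothelial-like cells. It was not among the dendritic factors called in Kupffer-like cells. Of 31 macrophage factors 28 were tested and 8 passed, of 16 dendritic factors 12 and 3, and of 25 BMP route genes 21 and 12, against 14.8% of all genes. Id2 passed with 1 of the 6 libraries left out and Tcf4 with 5, and the other 8 passed with each of the 6 left out. Endothelial marker sums in Kupffer-like cells were 309 to 387 CPM in vehicle and 1100 to 1947 CPM in ginkgetin, and their part in these differences was not tested.

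Outside the compared classes, Maf was at 374 CPM in ginkgetin 2 and 1048 CPM in ginkgetin 3 in the unnamed cluster 35, whose nearest class was Kupffer-like, against 237, 178 and 189 CPM in its vehicle libraries. These rested on 15 and 19 ginkgetin cells at median depths of 1611 and 3791 UMIs, against 38 to 84 vehicle cells at 14940.5 to 18471 UMIs. Irf4 lay above all vehicle libraries (30.8 to 74.9 CPM) in B cell-like cells of ginkgetin 1 (94.996 CPM) and ginkgetin 3 (137 CPM), with ginkgetin 2 at 73.0 CPM inside that range. In plasma cell-like cells it lay above the vehicle libraries (56.1 to 150 CPM) in all 3 ginkgetin libraries, at 234, 316 and 218 CPM. No test was run on these values.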

How the results depend on the processing

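Counts of called genes, in the order Kupffer-like, macrophage-like, monocyte-like, dendritic-like and endothelial-like cells, were 1114, 59, 3, 0 and 141, and 1581 for the interaction. The replicate block gave 1418, 504, 315, 184 and 461, and a block for the barcode set 1483, 423, 318, 244 and 480. The former called 1065 of the 1114 Kupffer-like genes, all 59 macrophage-like, all 3 monocyte-like and all 141 endothelial-like genes. Among the members the replicate block changed 1 call, Irf4 in monocyte-like cells. The UMI range gave 17, 0, 0 and 136 (71 for the interaction), with no dendritic-like test possible. Without a gene filter there were 1688, 452, 217, 41 and 198, with DESeq2 1127, 275, 174, 135 and 328 (775), with the marker gate 1301, 0, 20, 0 and 74, and without the highest doublet scores 1131, 0, 4, 24 and 134. Library totals, an alternative chosen after seeing the data, gave 1728, 155, 1, 0 and 57. With 1 library left out the counts ranged from 514 (without ginkgetin 3) to 1757 (without vehicle 3) in Kupffer-like, 0 to 146 in macrophage-like, 0 to 43 in monocyte-like, 0 to 0 in dendritic-like and 0 to 77 in endothelial-like cells and 773 to 1259 for the interaction. The causes of these shifts were not tested. The tests of shares of cells with a UMI say nothing of stability, since 3 against 3 libraries allow no p below 0.10.

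Of the members' log2 fold changes under the alternatives, 555 kept sign and side of the call, 9 became calls and 43 changed sign, all of them below a call. Irf4 in monocyte-like cells also became a call with the barcode-set block (1.89), no gene filter (1.79) and the marker gate (2.65), Batf3 in endothelial-like cells with the barcode-set block (-1.36), and Irf4 in Kupffer-like cells could not be tested in the UMI range. Signs changed with the UMI range for Id1 (0.61) and Irf8 (0.26) in Kupffer-like, Spic (0.68), Id3 (0.17) and Irf8 (0.35) in macrophage-like, Maf (0.030) and Spi1 (0.10) in monocyte-like cells and Id3 in the interaction (0.20). On library totals they did for Id1 (0.33), Batf3 (0.22) and Spi1 (0.014) in Kupffer-like, Id3 (0.13), Zeb2 (0.24) and Irf8 (0.0043) in macrophage-like, Spi1 (0.062) in monocyte-like cells and Zeb2 in the interaction (0.21). The marker gate turned Id1 (-0.019) in macrophage-like, Maf (0.20) in monocyte-like, Id1 (0.13) in dendritic-like, Spi1 (0.26) in endothelial-like cells and Id1 in the interaction (-0.017), and leaving out doublet scores turned Id1 (-0.23) and Spi1 (-0.046) in macrophage-like cells. Spi1 also turned without a gene filter in macrophage-like cells (-0.037) and with the replicate block in monocyte-like cells (0.042). With 1 library left out, the values of those that changed sign spanned -0.46 to 0.14 (Id1) and -0.045 to 0.45 (Zeb2) in Kupffer-like, -0.26 to 0.55 (Id1), -0.48 to 0.00098 (Id3), -0.45 to 0.078 (Zeb2) and -0.23 to 0.31 (Spi1) in macrophage-like, -1.15 to 0.048 (Id1) and -0.31 to 0.24 (Spi1) in monocyte-like, -0.61 to 0.28 (Id1) and -0.059 to 0.40 (Batf3) in dendritic-like cells, and -0.28 to 0.55 for Id1 in the interaction.

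Without thinning, the shares of Kupffer-like cells with a Maf or Spic UMI differed by -8.66 and -12.5 percentage points, ginkgetin minus vehicle. Depth limits these comparisons, since Irf4 rests on 3 to 57 UMIs per library in Kupffer-like cells.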
